A study of Drosophila melanogaster with 24 samples.

Results

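The 5 genes described here encode the hexamerins of Drosophila melanogaster, which are Lsp2, Lsp1alpha, Lsp1beta and Lsp1gamma, and the hexamerin receptor Fbp1. They were taken by symbol from a table of 17606 genes measured in adult heads, and each was followed over age, sex, genotype and single libraries. The genes were selected on measured values of the same libraries, because Lsp2 had been seen to differ strongly between the genotypes in old heads, so every value of that contrast is given as a description with no test. All 5 genes passed the filter on low values, as did 12493 genes in all.

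Heads of H3.3BK36R flies were compared with heads of H3.3Adelta flies, called H3.3K36R and H3.3Anull in the study. Both genotypes lack the H3.3A gene, with a null allele over a deficiency, and carry y and w on the X chromosome. H3.3Adelta flies keep the unmutated X-linked gene H3.3B, and in H3.3BK36R flies H3.3B encodes arginine for lysine at position 36 of histone H3.3, so that no H3.3 protein with this lysine is made. The mutation is present in every cell from fertilization on. Old flies were 21 to 25 days old and young flies 0 to 2 days. There were 3 libraries for each of the 8 combinations of age, sex and genotype, each from the heads of 10 to 25 flies, and young male H3.3BK36R replicate 2 was left out, which leaves 23 of 24. In that library the markers of male reproductive tissue summed to 33643 normalized counts, against at most 329 in the others.

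Hexamerins are storage proteins that the larval fat body makes and secretes into the haemolymph. Shortly before pupariation they are taken back into the fat body through the Fbp1 receptor, and their amino acids are used to build adult tissue during metamorphosis. LSP1 hexamers are assembled from alpha, beta and gamma subunits encoded by 3 separate genes, while LSP2 hexamers hold the Lsp2 product alone. Lsp2 is also known to be transcribed in the adult fat body, which lies in the head as well as in the abdomen. Larval fat body cells persist as free cells into the newly eclosed adult and are lost early in adult life.

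Values are normalized counts, that is reads counted on a gene divided by the size factor of the library. Between 21263006 and 42763126 reads were counted per library. All 8 head markers, photoreceptor, neuronal and glial genes, were detected in every library. Other tissues varied between single libraries, with the midgut list summing to 18.9 to 4499 normalized counts, the eggshell list to 24.3 to 1747 and the larval salivary gland and cuticle list to 112 to 1968. Female fat body genes, the yolk proteins and fit, summed to 142213 in young male H3.3BK36R replicate 3 and to 3240 in replicate 1 of that group. In old male H3.3Adelta they summed to 528584 in replicate 3, against 13848 and 10182 in replicates 1 and 2. In old male H3.3BK36R they summed to 84894 in replicate 1, against 6237 and 4618 in replicates 2 and 3. Fewer cells of a type and less RNA per cell cannot be told apart in whole heads.

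Lsp2 (FBgn0002565) is found at 12129393 to 12131869 of chromosome arm 3L (dm6, plus strand). It is overlapped on the opposite strand by the antisense gene asRNA:CR11538, which was counted at 0 to 199 normalized counts and at no more than 4.83% of the Lsp2 reads of the same library. Lsp1alpha (FBgn0002562) lies on the X chromosome from 12490291 to 12492982, plus strand, and Lsp1beta (FBgn0002563) on 2L from 898500 to 901316, plus strand. Lsp1gamma (FBgn0002564) lies on 3L from 66430 to 68995, plus strand, and Fbp1 (FBgn0000639) on 3L from 14094589 to 14098053, minus strand. How reads shared between the 3 related Lsp1 genes were counted is not given in the sources used here, so low counts of Lsp1alpha and Lsp1gamma may hold reads of Lsp1beta or the reverse. In the library with the most Lsp1beta, old female H3.3BK36R replicate 1, there were 15945 reads on Lsp1beta, 183 on Lsp1alpha and 1 on Lsp1gamma. The extent of such sharing was not tested.

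The genes differed widely in level and from library to library. Lsp2 was the most abundant, with 113 to 142305 normalized counts and a median of 14962 over 23 libraries, or 6041 per kb of exon. Lsp1beta followed with 22.0 to 21267 and a median of 1013, or 369 per kb. Lsp1alpha ranged from 0 to 297, with a median of 13.4 per kb, Lsp1gamma from 1.33 to 639, with a median of 7.38 per kb, and Fbp1 from 1.08 to 1677, with a median of 4.60 per kb. Within a group of replicates the SD on the log2 scale was 1.43 for Lsp2, 1.53 for Lsp1alpha, 1.3 for Lsp1beta, 1.23 for Lsp1gamma and 1.44 for Fbp1. Replicates of the same group thus often differed severalfold in each of the 5 genes.

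Lsp2 was abundant in every H3.3BK36R library of both ages, and in old heads it was low in all but 1 H3.3Adelta library. In old females it had 142305, 72941 and 34212 normalized counts in H3.3BK36R replicates 1, 2 and 3, against 6714, 458 and 113 in H3.3Adelta. In old males it had 21489, 7741 and 10484 in H3.3BK36R, against 460, 133 and 437 in H3.3Adelta. Every old H3.3BK36R library lay above every old H3.3Adelta library, females and males alike, with 7741 as the lowest H3.3BK36R value and 6714 as the highest H3.3Adelta value. In old female H3.3BK36R replicate 1, Lsp2 took 0.466% of all counted reads and ranked 22 among all genes per kb.

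In young heads Lsp2 was high in both genotypes. Young females had 96829, 13977 and 52068 normalized counts in H3.3BK36R, against 7499, 3906 and 22016 in H3.3Adelta, and these groups overlapped. Young males had 29435 and 52113 in the H3.3BK36R replicates 1 and 3, against 15828, 18982 and 14962 in H3.3Adelta, with no overlap. The library that was left out had 38017.

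Ordered by their mean, the Lsp2 levels ran over old female H3.3BK36R with 83153 ± 54765 normalized counts (SD, n = 3), young female H3.3BK36R with 54291 ± 41471, young male H3.3BK36R with 40774 ± 16036 (n = 2), young male H3.3Adelta with 16591 ± 2116, old male H3.3BK36R with 13238 ± 7276, young female H3.3Adelta with 11140 ± 9588, old female H3.3Adelta with 2428 ± 3715 and old male H3.3Adelta with 343 ± 182. Neighbours in this order had overlapping ranges except young male H3.3BK36R and young male H3.3Adelta. The order puts every H3.3BK36R group but the old males above every H3.3Adelta group.

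**Figure D1:**
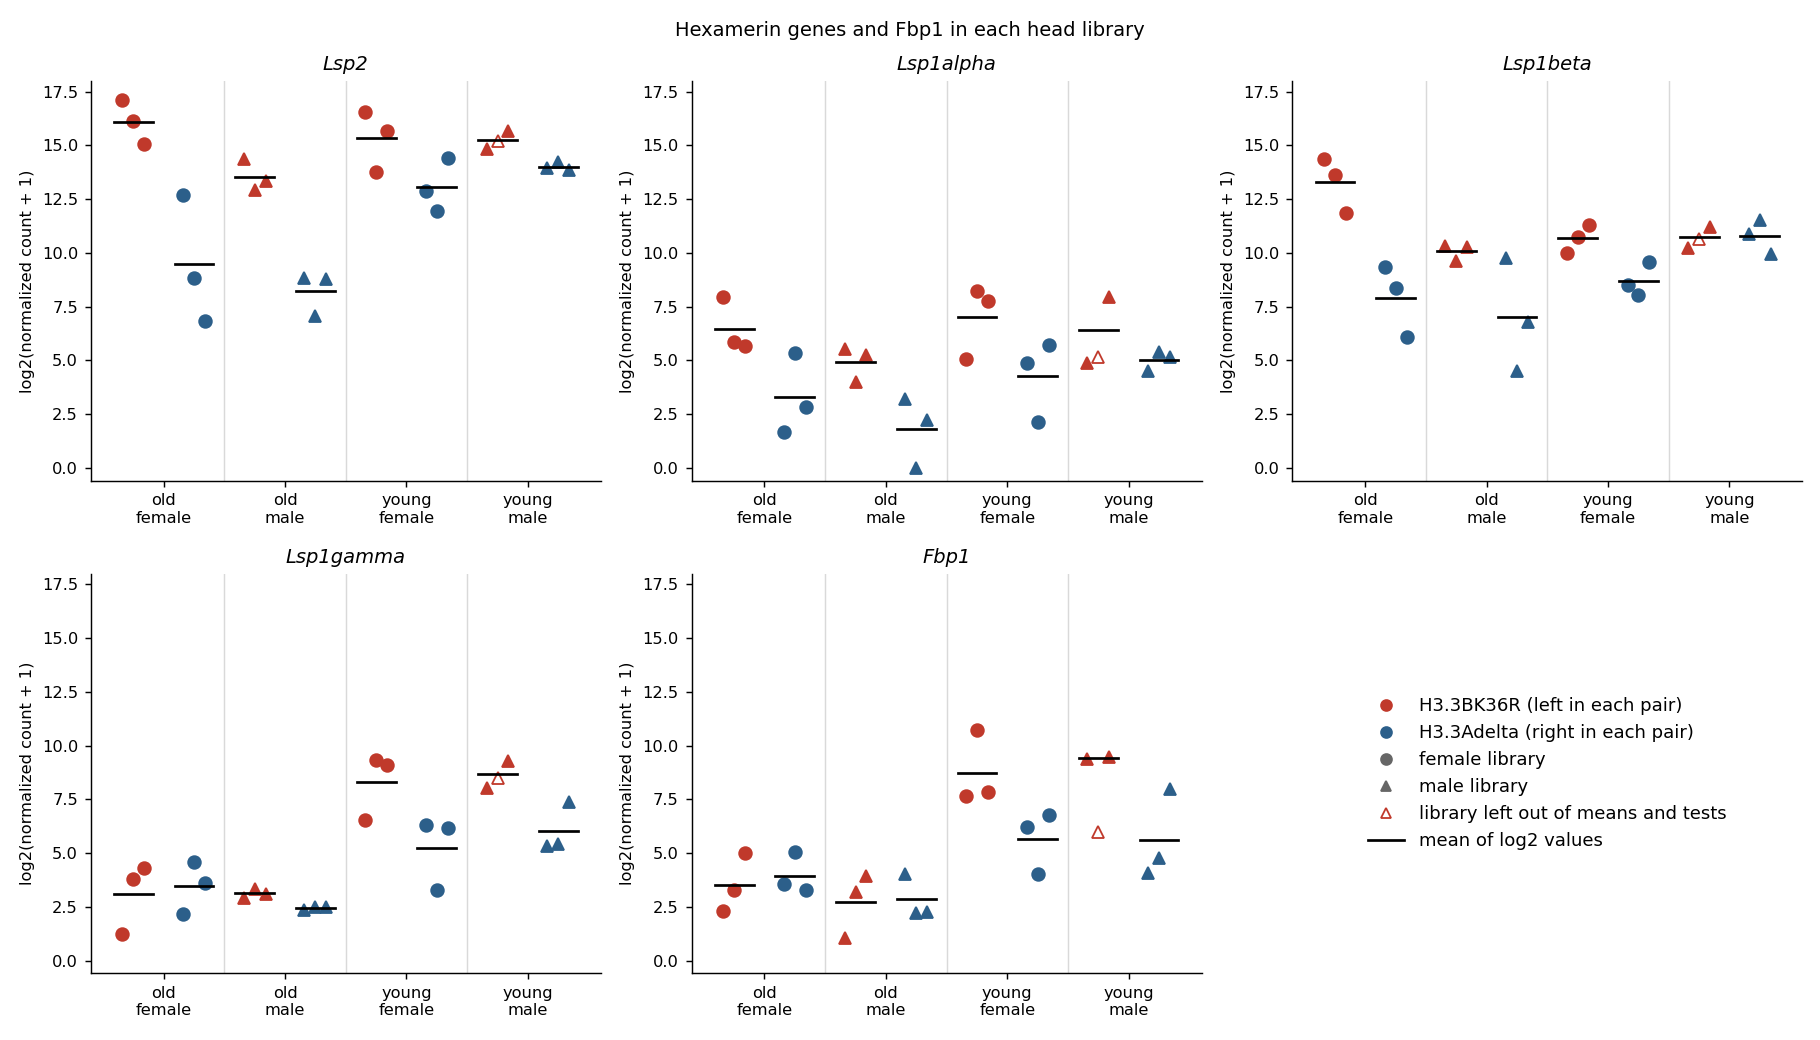
Each point is 1 library, on the y axis as log2(normalized count + 1), with the groups of age and sex on the x axis, H3.3BK36R left of H3.3Adelta in each pair. Black lines are means of the log2 values, and the open symbol is the library left out. Lsp2 lies between 7741 and 142305 normalized counts in old H3.3BK36R libraries and between 113 and 6714 in old H3.3Adelta libraries, while Lsp1gamma and Fbp1 stay below 33 in every old library.

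Lsp1beta, the main LSP1 subunit gene in these heads, showed the same order of genotypes in old females and a smaller gap in old males. Old females had 21267, 12625 and 3731 normalized counts in H3.3BK36R, against 640, 329 and 66.3 in H3.3Adelta, so the lowest H3.3BK36R value was above the highest H3.3Adelta value. Old males had 1297, 780 and 1233 in H3.3BK36R, against 856, 22.0 and 109 in H3.3Adelta, where replicate 1 lay above the lowest H3.3BK36R library. In young females the values were 1013, 1737 and 2544 in H3.3BK36R, against 364, 259 and 757 in H3.3Adelta, with no overlap. In young males they were 1189 and 2390 in H3.3BK36R, against 1867, 2980 and 983 in H3.3Adelta, so that the genotypes overlapped.

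Lsp1alpha, the X-linked LSP1 subunit gene, stood at 0% to 17.9% of Lsp1beta per kb. It had 244, 56.3 and 49.6 normalized counts in old female H3.3BK36R heads, against 2.13, 39.7 and 6.14 in H3.3Adelta, and 44.5, 14.9 and 37.4 in old male H3.3BK36R heads, against 8.17, 0 and 3.75 in H3.3Adelta. The genotypes did not overlap within either sex of old heads. In young heads they overlapped, with 32.7, 297 and 216 in female H3.3BK36R against 28.8, 3.44 and 52.0 in female H3.3Adelta, and with 28.2 and 246 in male H3.3BK36R against 22.0, 41.4 and 35.1 in male H3.3Adelta. Several of these values rest on fewer than 10 reads, and their fold changes depend on the pseudocount.

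Lsp1gamma, which encodes the remaining LSP1 subunit, had at most 23.1 normalized counts in any old library and 8.59 to 639 in young ones, so that the lowest young library lay within the range of the old ones. Young females had 90.6, 639 and 540 normalized counts in H3.3BK36R, against 77.3, 8.59 and 70.1 in H3.3Adelta. Young males had 263 and 619 in H3.3BK36R, against 39.5, 41.4 and 166 in H3.3Adelta. In both sexes every young H3.3BK36R library was above every young H3.3Adelta library of that sex. Old heads had 1.33, 13.0 and 18.5 in female H3.3BK36R against 3.55, 23.1 and 11.1 in female H3.3Adelta, and 6.51, 9.17 and 7.66 in male H3.3BK36R against 4.09, 4.59 and 4.69 in male H3.3Adelta. The females overlapped, and the males were separated by only a few reads.

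Fbp1, the receptor through which the fat body takes hexamerins back up, followed Lsp1gamma. Young females had 204, 1677 and 225 normalized counts in H3.3BK36R, against 73.5, 15.5 and 107 in H3.3Adelta, and young males had 671 and 720 in H3.3BK36R, against 16.0, 26.4 and 255 in H3.3Adelta. Again no young H3.3Adelta library reached a H3.3BK36R library of the same sex, although the library left out, with 62.4, would have overlapped. Old heads had 4.0, 8.65 and 31.1 in female H3.3BK36R against 10.6, 32.3 and 8.60 in female H3.3Adelta, and 1.08, 8.03 and 14.4 in male H3.3BK36R against 15.5, 3.67 and 3.75 in male H3.3Adelta. The old groups overlapped in both sexes.

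Set against all genes, separation of the genotypes was common. In old females 3 of the 5 genes (Lsp2, Lsp1alpha and Lsp1beta) had every H3.3BK36R library above every H3.3Adelta library, as had 13.6% of all tested genes. In old males it was Lsp2, Lsp1alpha and Lsp1gamma, against 17.4% of all genes, and over both sexes Lsp2 alone, against 3.98%. In young females Lsp1beta, Lsp1gamma and Fbp1 were separated, against 12.3% of all genes, and in young males Lsp2, Lsp1gamma and Fbp1, against 15.7%. Over both sexes of young heads none of the 5 was separated, against 2.79%. Nothing is read from the old counts, since the Lsp2 difference in old heads chose the genes.

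In heads of H3.3Adelta flies all 5 genes fell with age. The question was how far genes of the larval fat body remain expressed as adults age, and limma was fitted to log2(normalized count + 1) of all tested genes with sex as a covariate. Lsp2 fell by 4.70 on the log2 scale (SE 0.78, adjusted p = 4.76e-05), which is 25.9-fold and the largest of the 5 changes. Lsp1gamma fell by 2.69 (SE 0.62, adjusted p = 0.00136), Fbp1 by 2.25 (SE 0.72, adjusted p = 0.0143), Lsp1beta by 2.27 (SE 0.85, adjusted p = 0.0356) and Lsp1alpha by 2.10 (SE 0.78, adjusted p = 0.0346). Of all tested genes 20.4% were called lower, and the median change over all genes was 0.04, against -2.27 over the 5 genes. This contrast uses the same old H3.3Adelta libraries as the genotype contrast in which Lsp2 was first seen, so it is not independent of that choice.

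Markers of other tissues also differed between old and young H3.3Adelta heads, where 21.5% of all tested genes were called higher and 20.4% lower. Of 9 eggshell genes, 8 were called higher, with a list median of 3.54. The list summed to 146 to 1141 normalized counts in old females and to 31.9 to 1747 in old males, against 24.3 to 73.4 in young heads. The highest eggshell sum was thus that of a male library, and how this RNA came into male heads was not tested. Of 5 listed muscle genes, 3 were called lower, Mhc (-1.60), Act88F (-1.14) and Act79B (-1.01), and 1 higher, TpnC4. TpnC4 had 5.51 to 16.3 normalized counts in old H3.3Adelta heads, against 1.13 to 9.41 in young ones. The list, made up mostly of Mhc, summed to 13456 to 28567 in old heads, against 30888 to 106358 in young ones. Of 6 midgut genes, 2 were called higher, with a median of 2.10. Of 8 tested salivary glue (Sgs) and larval cuticle (Lcp) genes, 2 were called lower, Lcp1 (-2.40) and Sgs1 (-0.65), with a median of -0.44. The part of these tissues in the falls of the 5 genes was not tested.

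The falls of Lsp2, Lsp1gamma and Fbp1 with age in H3.3Adelta passed the test under each alternative that gave an adjusted p and without any single library. The calls of Lsp1alpha and Lsp1beta did not. With edgeR on recovered reads the adjusted p was 0.0874 for Lsp1alpha and 0.0856 for Lsp1beta, leaving 3 of 5 genes. The count was likewise 3 without young male H3.3Adelta replicate 1, 2 or 3, without old male H3.3Adelta replicate 2 and without old female H3.3Adelta replicate 3. For Lsp1alpha a pseudocount of 5 also gave an adjusted p of 0.0702.

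In H3.3BK36R heads the 5 genes parted with age. Lsp1gamma fell by 5.34 on the log2 scale (SE 0.66, adjusted p = 1.21e-06) and Fbp1 by 5.85 (SE 0.75, adjusted p = 2.13e-06), or 40.4-fold and 57.8-fold. The other 3 genes did not pass the test. The change was -0.39 (SE 0.82, adjusted p = 0.747) for Lsp2, -1.0 (SE 0.82, adjusted p = 0.362) for Lsp1alpha and 1.03 (SE 0.90, adjusted p = 0.391) for Lsp1beta. Thus 2 of the 5 genes were called lower, against 19.9% of all tested genes, and the median over all genes was 0.03. With standard errors near 0.8 a change of severalfold in either direction would not have been detectable for Lsp2, Lsp1alpha or Lsp1beta. The old H3.3BK36R libraries are also those of the contrast in which Lsp2 was seen.

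Larval tissue markers fell with Lsp1gamma and Fbp1 in this comparison. Of the 8 tested Sgs and Lcp genes, 6 were called lower with age in H3.3BK36R heads and none higher, with a median of -2.42, and the called changes lay between -3.06 for Lcp4 and -2.28 for Lcp3. The list summed to 112 to 224 normalized counts in old H3.3BK36R heads, against 237 to 1968 in young ones, with no overlap, and no more than 4 of its 10 genes were at 0 in any old library. Of the 5 muscle genes 3 were called lower and 1 higher, with a median of -1.35, and none of the 9 eggshell or 6 midgut genes was called. Over all tested genes 19.9% were called lower and 20.5% higher. The part of larval tissue in the falls of Lsp1gamma and Fbp1 was not tested.

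**Figure D2:**
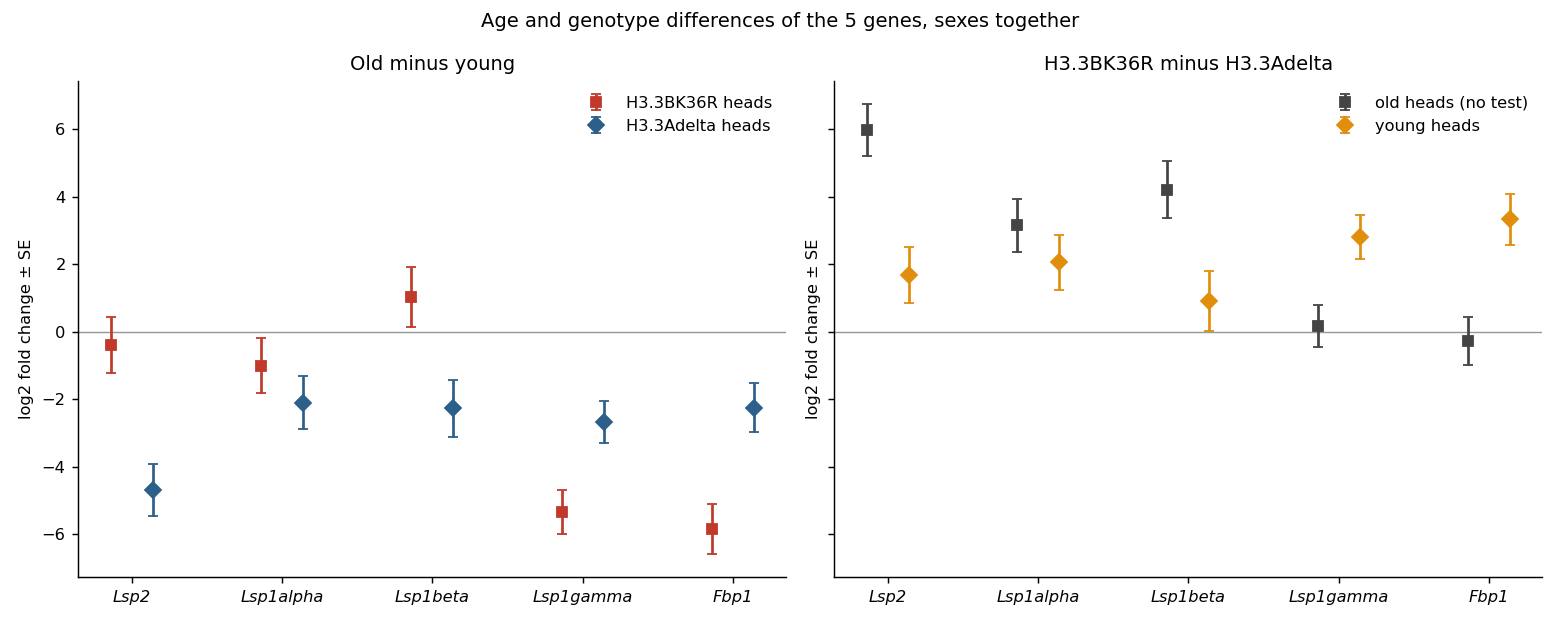
The y axis gives the log2 fold change of each gene with its SE, from limma on log2(normalized count + 1) over 23 libraries with sex as a covariate. On the left, old minus young is near 0 for Lsp2 in H3.3BK36R heads (-0.39) and -4.70 in H3.3Adelta heads, and is lower in H3.3BK36R than in H3.3Adelta for Lsp1gamma and Fbp1. On the right, H3.3BK36R minus H3.3Adelta is largest for Lsp2 in old heads, shown as a description, and for Fbp1 in young heads.

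The difference between the ageing changes, the age by genotype term, contains the old contrast and is given without a test. It was 4.30 for Lsp2, 3.31 for Lsp1beta and 1.10 for Lsp1alpha, but -2.65 for Lsp1gamma and -3.60 for Fbp1. Its sign was kept for each gene without any single library. In old heads H3.3BK36R minus H3.3Adelta was 5.99 for Lsp2 (SE 0.78, 63.4-fold), 4.21 for Lsp1beta (SE 0.85) and 3.15 for Lsp1alpha (SE 0.78). It was 0.16 for Lsp1gamma (SE 0.62) and -0.27 for Fbp1 (SE 0.72). The Lsp2 difference in old females was 6.65 and in old males 5.32, and that of Lsp1beta 5.37 and 3.06. Without old female H3.3Adelta replicate 1, the old library with the highest Lsp2 among H3.3Adelta heads, the Lsp2 difference in old females was 8.27, without replicate 3 of that group it was 5.33, and it was 5.08 by edgeR and 5.10 by DESeq2. The Lsp1beta difference in old males was 4.42 without old male H3.3Adelta replicate 1, 1.81 without replicate 2 of that group, 1.72 by edgeR and 1.75 by DESeq2.

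Young heads were not part of the contrast in which Lsp2 was seen, and there the genes that rose in H3.3BK36R were Lsp1gamma and Fbp1. Lsp1gamma was 2.81 higher on the log2 scale (SE 0.66, adjusted p = 0.00776, 7.02-fold) and Fbp1 3.34 higher (SE 0.75, adjusted p = 0.00599, 10.1-fold). The remaining values were 1.68 for Lsp2 (SE 0.82, adjusted p = 0.216), 2.06 for Lsp1alpha (SE 0.82, adjusted p = 0.126) and 0.91 for Lsp1beta (SE 0.90, adjusted p = 0.574). The 2 calls stand against 4.8% of all tested genes called higher, and the median over all genes was 0.02. edgeR also called Lsp1alpha, with an adjusted p of 0.0474, and DESeq2 called Lsp1gamma and gave no adjusted p for Fbp1.

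Some markers of other larval tissues also differed between the genotypes in young heads. Of the 10 listed Sgs and Lcp genes, 8 were tested, and 3 were called higher in young H3.3BK36R heads and none lower, against 4.8% of all tested genes called higher, with a list median of 1.74. They were Lcp4 (3.3, adjusted p = 0.0232), Sgs3 (2.97, adjusted p = 0.0179) and Sgs5 (2.69, adjusted p = 0.0164), while Sgs1 (-0.05), Sgs4 (0.12) and Lcp1 (0.45) were not called. Within young males 2 of the 8 were called, with a median of 3.3, and within young females none was, with a median of 0.29. Whether the sexes differed in this was not tested. The list summed to 237 to 646 normalized counts in young female H3.3BK36R against 217 to 419 in young female H3.3Adelta, and to 650 to 1968 in young male H3.3BK36R against 224 to 264 in young male H3.3Adelta. No more than 4 of the 10 genes were at 0 in any young library.

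The highest sum, 1968, was that of young male H3.3BK36R replicate 3, whose Lcp1 count was 633. Without this library Lsp1gamma was still 2.58 higher (adjusted p = 0.0283) and Fbp1 3.14 higher (adjusted p = 0.0211). The part of larval tissue in the young difference was not tested. With all 24 libraries Lsp1gamma was 2.82 higher (adjusted p = 0.00391) and Fbp1 2.87 higher (adjusted p = 0.0167).

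Within a single sex of young heads no gene of the 5 passed the test by limma. In young females the difference was 3.07 for Lsp1gamma (adjusted p = 0.0625) and 3.06 for Fbp1 (adjusted p = 0.117), and 3.89% of all tested genes were called. At an unadjusted p below 0.05 there were 4 of the 5 genes, and edgeR and DESeq2 each called 2, Lsp1gamma and Fbp1. In young males it was 2.62 for Lsp1gamma (adjusted p = 0.138) and 3.82 for Fbp1 (adjusted p = 0.0626), with 4.63% of all genes called, 2 of the 5 genes at an unadjusted p below 0.05 and 0 by edgeR or DESeq2. The sizes were close to those over both sexes, with larger standard errors of 0.90 to 1.17.

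Sex differences were called for Lsp1beta alone, in old H3.3BK36R heads. There it was 3.22 higher in females than in males on the log2 scale (SE 0.96, adjusted p = 0.0227). Of all tested genes 9.96% were called higher in old H3.3BK36R females. The call was lost without old female H3.3BK36R replicate 1 (adjusted p = 0.109) or 2 (0.0725) and without old male H3.3BK36R replicate 2 (0.0830) or 3 (0.0545).

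For Lsp2 female minus male was 2.56 (SE 1.03, adjusted p = 0.0897) in old H3.3BK36R heads. DESeq2 called it, with an adjusted p of 0.0242. Old H3.3BK36R females also had more RNA of general fat body genes, with 8 of 12 listed genes called higher than in males and a list median of 0.81. In old H3.3Adelta heads 5 of the 12 were called higher in females and 0 lower, with a median of 0.49. Of all tested genes 9.96% and 7.02% were called higher in these 2 comparisons. How much of the Lsp1beta and Lsp2 difference goes with the fat body genes was not tested. The female fat body genes, the yolk proteins and fit, were all 4 called higher in old females of both genotypes.

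The same comparison called none of the 5 genes in the other groups. In old H3.3Adelta heads female minus male was 0.91 for Lsp1beta (adjusted p = 0.603) and 1.23 for Lsp2 (adjusted p = 0.492), with 12.1% of all genes called, 0 of the 5 at an unadjusted p below 0.05, 0 by edgeR and 1, Lsp2, by DESeq2. In young H3.3BK36R heads 1.54% of all genes were called and in young H3.3Adelta heads 3.78%. At an unadjusted p below 0.05 there were 0 and 1 of the 5 genes, and edgeR and DESeq2 called none. The gene with that unadjusted p was Lsp1beta, with female minus male of -2.08 in young H3.3Adelta heads (adjusted p = 0.308).

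Whether the sex difference itself differed between genotypes in old heads was tested with an interaction term, chosen after the data had been seen. No gene of the 5 passed, and 0.048% of all genes did. The term was 2.31 for Lsp1beta (SE 1.36, adjusted p = 0.989) and 1.32 for Lsp2 (SE 1.46, adjusted p = 0.999), none of the 5 genes had an unadjusted p below 0.05, and neither edgeR nor DESeq2 called any. The sex difference of Lsp1beta is thus not shown to be particular to H3.3BK36R.

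The 5 genes fell into a pair of sets by how they varied over libraries. Over all 23 libraries the correlation of log2 values, which holds the group differences, was 0.855 between Lsp2 and Lsp1beta and 0.933 between Lsp1gamma and Fbp1, but only 0.198 between Lsp1beta and Lsp1gamma. Lsp1alpha stood between the sets, at 0.772 with Lsp1beta, 0.727 with Lsp2 and 0.588 with Lsp1gamma. After the mean of each of the 8 groups was taken out, the correlation was 0.646 between Lsp2 and Lsp1beta, 0.705 between Lsp1gamma and Fbp1 and -0.330 between Lsp2 and Lsp1gamma. Lsp1alpha then stood at 0.555 with Lsp1beta, 0.475 with Lsp1gamma, 0.367 with Fbp1 and only 0.0822 with Lsp2. These are descriptions over 23 libraries that share the scaling of their library, and for Lsp1gamma and Fbp1 the lower end rests on very few reads.

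**Figure D3:**
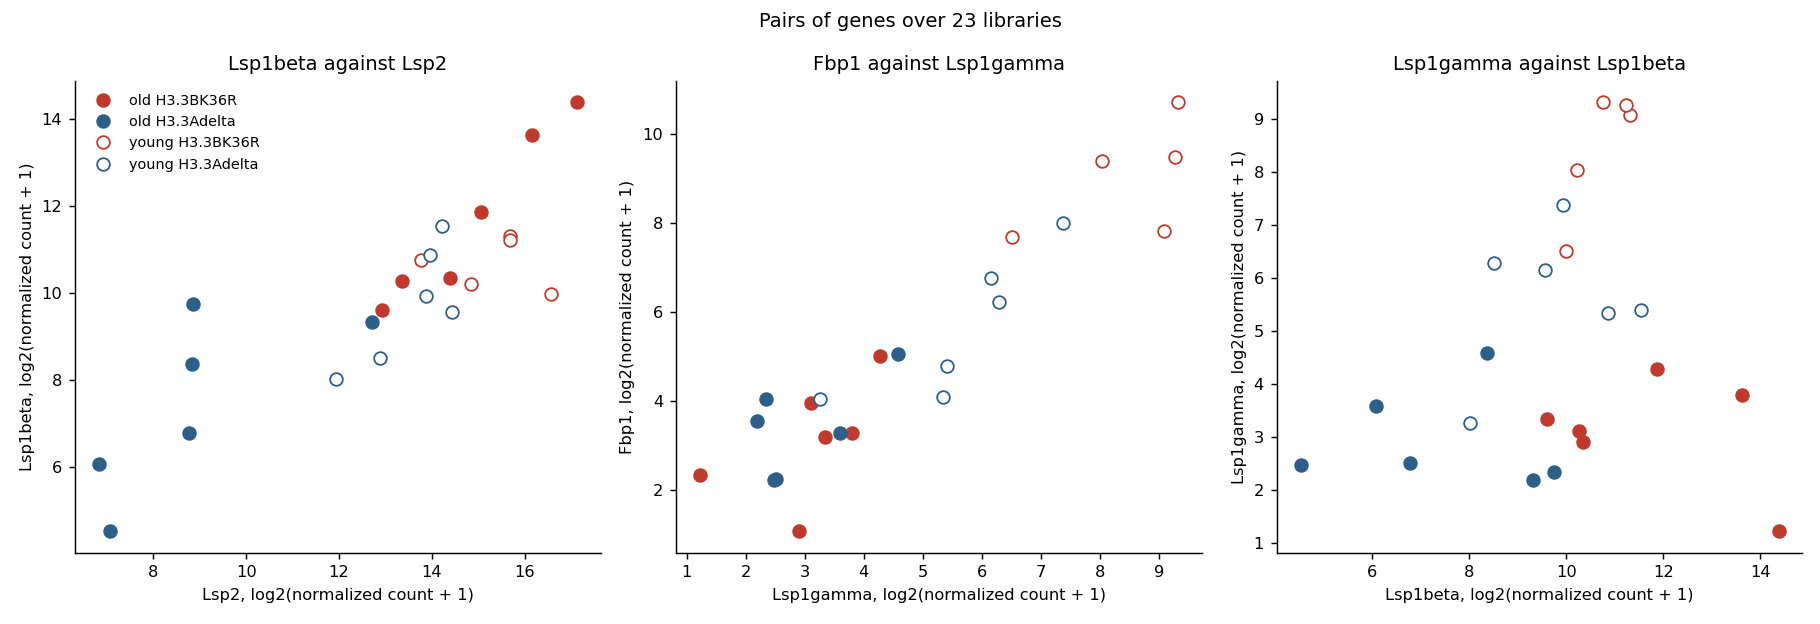
Each point is 1 of 23 libraries on log2(normalized count + 1) axes, filled for old and open for young heads, red for H3.3BK36R and blue for H3.3Adelta. Lsp1beta climbs with Lsp2 (correlation 0.855) and Fbp1 with Lsp1gamma (0.933), while in the right panel the old H3.3BK36R libraries, filled red, combine high Lsp1beta with low Lsp1gamma.

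Ratios within a library, taken per kb of exon, show the change of composition without the library's scaling. Lsp1gamma reached 0.00689% to 1.29% of Lsp1beta in old H3.3BK36R heads, against 0.525% to 22.9% in old H3.3Adelta heads. In young heads it reached 9.83% to 40.4% in H3.3BK36R, against 1.53% to 23.4% in H3.3Adelta. All 5 young H3.3BK36R libraries were therefore above all 6 old ones in this ratio, while old and young H3.3Adelta heads overlapped over most of their range.

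Fbp1 was 0.00201% to 0.0980% of Lsp2 in old H3.3BK36R heads, with a median of 0.0368%, and 0.113% to 5.44% in old H3.3Adelta heads, with a median of 2.19%. Nothing is read from the gap between these groups, since the ratio is taken over Lsp2, whose difference in old heads chose the genes, and Fbp1 itself overlapped there. In young heads it was 0.151% to 8.58% in H3.3BK36R and 0.0720% to 1.22% in H3.3Adelta. Lsp1beta was 5.44% to 15.6% of Lsp2 in old H3.3BK36R heads and 8.58% to 168% in old H3.3Adelta heads. Its median was 10.2% in old H3.3BK36R heads, against 4.13% in young ones. Only in old male H3.3Adelta replicate 1 was Lsp1beta above Lsp2 per kb, and in the other 5 old H3.3Adelta libraries it reached at most 64.7% of Lsp2.

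**Figure D4:**
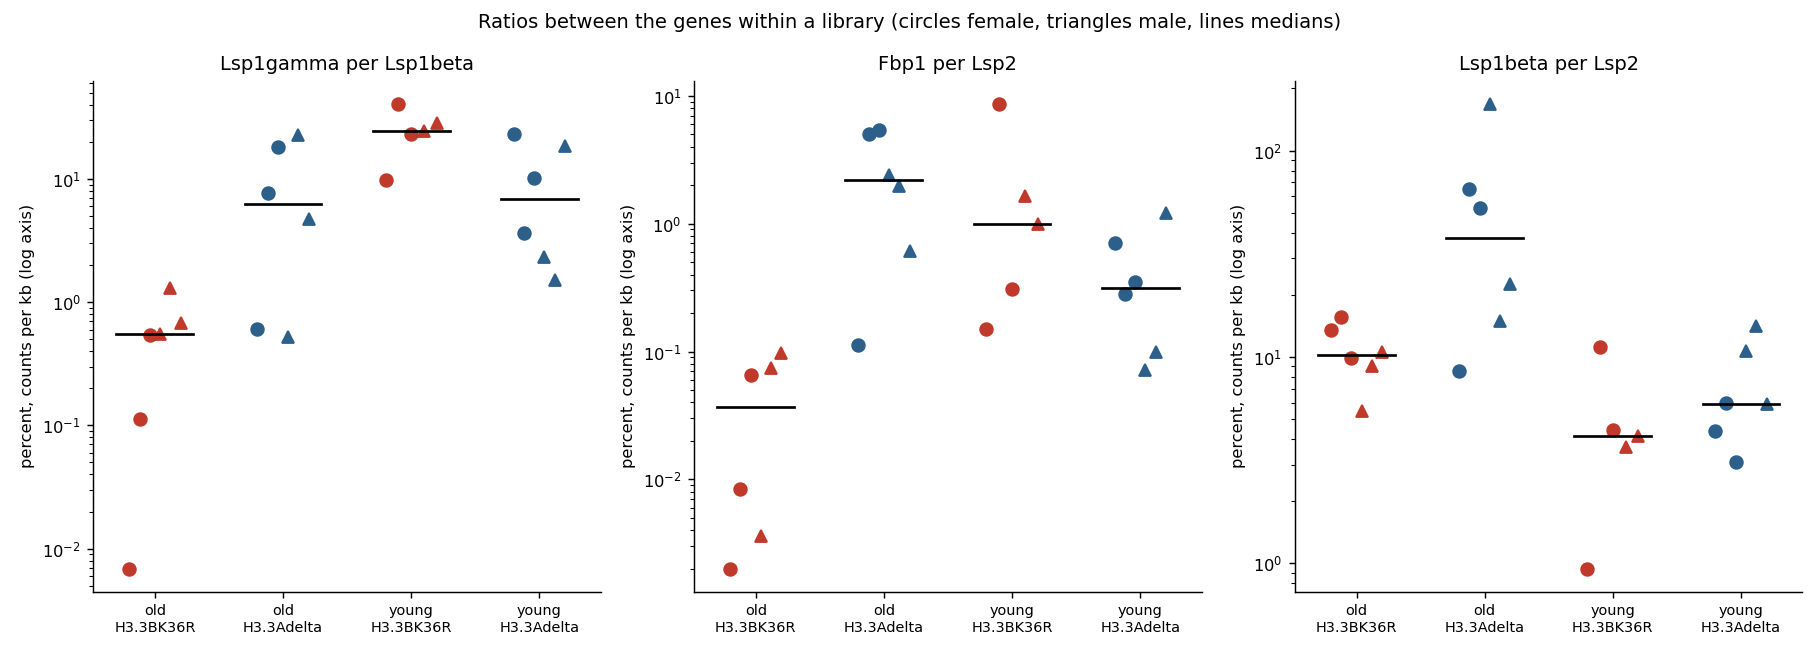
The y axes, on a log scale, give the ratio of normalized counts per kb within a library in percent, for old and young heads of both genotypes, with circles for females, triangles for males and lines for medians. The left panel shows Lsp1gamma at no more than 1.29% of Lsp1beta in old H3.3BK36R heads and at 9.83% or more in young ones.

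Among the genes listed beside the hexamerins, Fbp2 was called in the same direction as Lsp1gamma and Fbp1 in the 3 comparisons over both sexes. Fbp2 is a fat body protein gene of the late larva. It was put in the list of hexamerin superfamily relatives, and whether it belongs to that superfamily was not tested. The other genes of this list, PPO1, PPO2 and PPO3, are prophenoloxidases of the hexamerin superfamily. Young females had 32.7, 511 and 73.4 normalized counts of Fbp2 in H3.3BK36R, against 17.4, 1.72 and 31.6 in H3.3Adelta, and young males had 97.1 and 254 in H3.3BK36R, against 11.4, 16.9 and 62.1 in H3.3Adelta. Fbp2 was thus above every H3.3Adelta library of the same sex in each young H3.3BK36R library used, as were 12.3% of all genes in females and 15.7% in males, but the library left out, with 17.0, would have overlapped. It was 2.94 higher in young H3.3BK36R heads (adjusted p = 0.0210), fell by 4.84 with age in H3.3BK36R (adjusted p = 4.47e-05) and fell by 2.46 in H3.3Adelta (adjusted p = 0.0113). No old library had more than 11.5 normalized counts of Fbp2.

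The prophenoloxidases went another way. PPO1 rose by 0.93 (adjusted p = 0.0420) and PPO2 by 0.83 (adjusted p = 0.00275) with age in H3.3BK36R heads, PPO2 was 0.99 lower in young H3.3BK36R heads than in young H3.3Adelta heads (-0.99, adjusted p = 0.00336), and PPO3 passed in none of the 3 comparisons over both sexes. PPO1, made like PPO2 by the crystal cells of the blood, differed by 0.21 between the young genotypes (adjusted p = 0.770).

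No listed general fat body gene was called lower with age in either genotype. Of 12 genes of lipid transport, storage and synthesis and their regulators, 3 rose and none fell with age in H3.3Adelta heads, 4 rose and none fell in H3.3BK36R heads, and 1 was lower in young H3.3BK36R heads. Of all tested genes 21.5% were called higher and 20.4% lower with age in H3.3Adelta, 20.5% and 19.9% in H3.3BK36R, and 4.4% lower in young H3.3BK36R heads. Those that rose were Apoltp (0.99 in H3.3Adelta and 0.86 in H3.3BK36R), which carries lipid in the haemolymph, Mtp (0.64 and 0.98), which loads lipoproteins, srp (0.36 and 0.87) and Lpin, called in H3.3BK36R (0.26) and not in H3.3Adelta (0.13, adjusted p = 0.192), a difference that was not tested. The list's medians were 0.16 with age in H3.3Adelta and 0.23 in H3.3BK36R, against 0.04 and 0.03 over all genes. srp, the GATA factor of the fat body, was the gene lower in young H3.3BK36R heads (-0.47, adjusted p = 0.00253).

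Of the 5 GATA factor genes, srp alone rose with age in H3.3Adelta. In H3.3BK36R srp rose and grn fell (-0.39, adjusted p = 0.00366). The 4 female fat body genes were not called in either ageing comparison or between the young genotypes.

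Hexamerin and Fbp genes respond to ecdysone in the larva, and 19 of 20 listed genes of ecdysone synthesis and response were tested. With age 3 rose and 7 fell in H3.3Adelta heads, with a median of -0.20, against 21.5% of all genes called higher and 20.4% lower. In H3.3BK36R heads 1 rose and 5 fell, with a median of -0.10, against 20.5% and 19.9%. The nuclear receptor gene Hr38 fell by 1.96 in H3.3Adelta and fell by 2.87 in H3.3BK36R, the largest fall of the list in both, and Hr4 fell by 1.27 in H3.3Adelta and fell by 1.38 in H3.3BK36R. Between young genotypes only phtm, a P450 gene of ecdysone synthesis, was called, 1.56 higher in H3.3BK36R (adjusted p = 0.00409), and it fell by 0.94 with age in H3.3BK36R.

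Of 12 genes of the juvenile hormone pathway, 3 rose and 3 fell with age in H3.3Adelta, 3 rose and 1 fell in H3.3BK36R, and 2 were higher and 1 lower in young H3.3BK36R heads. With age 21.5% of all genes were called higher and 20.4% lower in H3.3Adelta, near the share of the list, and 20.5% and 19.9% in H3.3BK36R. Between the young genotypes 4.8% of all genes were called higher and 4.4% lower in H3.3BK36R. Jhe, which encodes juvenile hormone esterase, rose with age by 1.32 in H3.3Adelta and by 0.65 in H3.3BK36R and was 0.69 higher in young H3.3BK36R heads (adjusted p = 0.0327). Jheh3, an epoxide hydrolase gene, fell by 0.34 with age in H3.3Adelta, fell by 0.46 in H3.3BK36R and was 0.37 higher in young H3.3BK36R heads (adjusted p = 0.0251). The receptor gene Met was 0.20 lower there (-0.20, adjusted p = 0.0405). List medians were -0.08 with age in H3.3Adelta, 0.12 with age in H3.3BK36R and 0.07 between young genotypes.

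The genes outside the 5 that were most like Lsp2 over 23 libraries were Lcp65Ag2, a cuticle protein gene (r = 0.886), rogdi (r = 0.876), the glycosidase gene tobi (r = 0.869), CG15739 (r = 0.866) and the P450 gene Cyp6a23 (r = 0.864). With the group means taken out they were CG7778 (r = 0.871), tobi (r = 0.832), the globin gene glob1 (r = 0.810), CG5177 (r = 0.803) and CG1299 (r = 0.800), so that tobi was in both sets. tobi ranged from 32.7 to 8996 normalized counts over the libraries.

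For the mean of the 3 Lsp1 genes the most alike were CG5391 (r = 0.877), CG10953 (r = 0.865), Rsod (r = 0.861), the Tweedle cuticle gene TwdlU (r = 0.860) and Ugt37E1 (r = 0.860). With group means taken out they were CG10663 (r = 0.838), CG5866 (r = 0.785), lncRNA:CR44855 (r = 0.773), Fpgs1 (r = 0.764) and CG17028 (r = 0.732). No gene was shared between these sets. Several of them, such as CG5391 with at most 61.1 normalized counts and CG5866 with at most 21.9, were themselves low.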

How the data were processed

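Libraries of total, rRNA-depleted head RNA were read in pairs of 100 nt. The authors aligned reads to dm6 with STAR 2.7.7a, counted them with featureCounts (Subread 2.0.3) and deposited a signal, the count of each gene divided by the DESeq2 1.34.0 size factor of its library (normalized counts). The annotation release is not given in the sources used here, and the strand setting appears only as a forward-strand tag in the name of the deposited table. Every value became a whole read count (tolerance 1e-06) when multiplied by the size factor recovered from the file. Sexes, ages, genotypes and replicate numbers came from the labels. The authors describe each replicate as a biological replicate with its own pool of flies. Whether the pools came from separate crosses or days is not stated. The p-values measure the spread between these pools, which also holds technical differences between libraries. Reads carry no molecular identifiers.

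Tested were genes that reached 10 normalized counts in 3 or more libraries, by limma 3.58.1 (R 4.3.3, trend in the prior variance) on log2(normalized count + 1), two-sided, with Benjamini-Hochberg adjustment over 12493 genes and calls at an adjusted p below 0.05. Mixed-sex contrasts came from 1 fit of the 4 combinations of age and genotype, adjusted for sex, and contrasts within a sex or between sexes from 1 fit of 8 groups. The steps were tested on simulated data. Alternatives were pseudocounts of 0.5 and 5, no filter, upper-quartile scaling, a minimum of 50 in place of 10, edgeR 4.0.16 and DESeq2 1.42.0 on recovered reads, the replicate block, all 24 libraries, only the groups of a contrast, and each library left out. Fold changes of low genes are understated by the pseudocount.

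The 5 genes, the lists and the tests were chosen with earlier results of these data known. Named genes are the 5 genes, the 5 genes with the highest Pearson r to Lsp2 and to the Lsp1 mean, and called genes of the lists, at most 3 by size or as many as a count of 5 or fewer refers to. Sgs1, Sgs3, Sgs4, Sgs5, Lcp1, Lcp3, Lcp4, Mhc, Act79B, Act88F, TpnC4 and asRNA:CR11538 are named outside this rule, after their values were seen. Gene positions came from an Ensembl annotation on the dm6 coordinates, and 17527 of 17606 gene identifiers had a symbol. Python 3.11.15 was used for the remaining steps.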

Additional observations from a re-analysis of the deposited data

Results flagged for a closer look

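Of 20 groups of 5 or 6 libraries of the same age and genotype (4 for each gene), 2 held a library that stood apart by Dixon's test on the log2 scale, where chance alone gives about 1 in 20. Old female H3.3Adelta replicate 1 had 6714 normalized counts of Lsp2, and the next highest of the 6 old H3.3Adelta libraries had 460. Young female H3.3Adelta replicate 2 had 3.44 normalized counts of Lsp1alpha, and the next lowest of the 6 young H3.3Adelta libraries had 22.0.

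Young male H3.3BK36R replicate 2, which the main tests left out, had more Lsp2 and more Lsp1gamma than any young male H3.3Adelta library. Lsp2 had 38017 normalized counts there, against at most 18982, and Lsp1gamma had 359, against at most 166. Its Lsp1alpha (35.1), Lsp1beta (1588) and Fbp1 (62.4) lay within the range of young male H3.3Adelta, which reached 41.4, 2980 and 255.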

How the results depend on the processing

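Under the alternatives, 1284 of 1322 values of single genes counted as unchanged. Tested values counted so when they stayed on their side of the threshold. Values given without a test counted so when they moved by less than the spread between replicates. Values without a call could thus change sign. For Lsp2, female minus male in old H3.3Adelta heads was 1.23, and as low as -0.39 with a library left out. No called value changed sign. Of the remaining values 21 lost a call, 13 gained one and 4, all of old genotype differences, moved by more than that spread. The fall with age in H3.3Adelta was called for 3 genes by edgeR and for 3 to 5 when a library was left out. In H3.3BK36R, DESeq2 called 1 gene lower with age and 1 higher between young genotypes, as it gave Fbp1 no adjusted p. Genes called higher in young female H3.3BK36R heads numbered 1 with a pseudocount of 5, 2 by edgeR, 2 by DESeq2 and 0 to 1 with a library left out, against 0. In young males they were 1 with a pseudocount of 5 and 0 to 1 with a library left out. Genes higher in old H3.3BK36R females than males were 2 by DESeq2, 2 with only the groups of the contrast fitted and 0 to 1 with a library left out, and in old H3.3Adelta 1 by DESeq2. In a group left with 1 library, that library was assumed to vary like those of the other groups. By Spearman's rho, 1 of the 5 genes most like Lsp2 remained among the 5 over all libraries and 3 with group means taken out, and for the Lsp1 mean 1 and 2 remained. The cause of these changes was not tested.

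With the replicate block 1 gene, Lsp1gamma, was called higher in young female H3.3BK36R heads (adjusted p = 0.0324), and no other count of calls changed. Libraries with the same replicate number had a mean correlation of 0.1008 (77 pairs, 35 above 0.1), those with different numbers -0.0492 (154 pairs, 35 above 0.1). Of 23 libraries 12 correlated best with their own number. Libraries of the same number were thus somewhat more alike, and whether the numbers mark a batch was not tested. The main fits leave the numbers out, and the replicate block is given as an alternative.

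The lowest values rest on a few reads, and changes of severalfold in 1 gene were within the spread of 2 or 3 libraries.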
